A study of Homo sapiens with 12 samples.

Results

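The integrated stress response and the unfolded protein response were examined through 46 genes of the 58302 in the count table. They form an ATF4 arm of 27 genes, which are *ATF4*, the transcription factors around it and the targets of the amino acid response, and an ER arm of 19 genes, which are the stress sensors of the endoplasmic reticulum (ER), its chaperones and its degradation machinery. Members were found by gene symbol, and all 46 were in the table. NCI-H520 is a lung squamous cell carcinoma cell line, in which *L1-FGGY*, a chimeric transcript of a LINE-1 element and *FGGY*, was stably overexpressed from a lentiviral vector (OV-L1-FGGY) next to a control vector (OV-CTRL). By the labels, 12 RNA-seq libraries make up 4 groups of 3, which are a DMSO control taken as OV-CTRL and 3 OV-L1-FGGY groups that received DMSO, 10 μM ML355 (an inhibitor of 12-lipoxygenase) or 450 μM NVR (a reverse transcriptase inhibitor). Medium was exchanged for medium with the inhibitor 5 h after seeding, control cells received an equal volume of DMSO (0.2%), and the duration of treatment was not given in the sources used here. The sources do not state whether a line was 1 clone or whether the 3 replicates were separate cultures, so that p-values measure the spread between these libraries, which may be technical.

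In the integrated stress response, kinases that sense amino acid shortage, ER stress, viral RNA or mitochondrial stress phosphorylate the translation factor eIF2α. General translation then drops while the mRNA of *ATF4* is translated more, and the ATF4 protein switches on genes of amino acid uptake, amino acid synthesis and redox balance, along with *DDIT3* (CHOP) and the feedback phosphatase subunit *PPP1R15A* (GADD34). In the unfolded protein response, the ER membrane proteins PERK (*EIF2AK3*), IRE1 (*ERN1*) and ATF6 sense unfolded proteins, PERK feeds into the ATF4 arm, IRE1 splices the mRNA of *XBP1*, and XBP1 and cleaved ATF6 raise ER chaperones and degradation factors. A count per gene measures mRNA abundance, so that neither the translation of *ATF4*, nor the splicing of *XBP1*, nor the cleavage of ATF6 was measured here.

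Total counts ran from 16242082 to 27004768 per library. *FGGY* (chr1:59296638-59810647) had 4782, 5206 and 6196 counts under DMSO and 7346, 6290 and 5080 under ML355 in OV-L1-FGGY, against 91, 87 and 78 in OV-CTRL and 82, 103 and 88 in the NVR-labelled libraries. The NVR-labelled libraries therefore went against their label in the overexpressed gene, and they also lay closer to OV-CTRL over all genes, with a Pearson's r of log2 CPM (counts scaled by TMM to the library size) of at least 0.932 within each of these 2 sides and of 0.706 to 0.774 across them. They are called the NVR-labelled libraries throughout and were compared with both DMSO groups. Of 7 markers of squamous lung cells, 5 per group had at most 3 counts in each of its libraries, and *SOX2* had 0 counts in each library of OV-L1-FGGY with DMSO or ML355 against 128 to 446 in the other 6 libraries. The summed level of the epithelial markers *EPCAM*, *CDH1*, *KRT8* and *KRT18* ran from 436 to 5292 CPM over the 12 libraries, and that of 8 markers of leukocytes, endothelium, fibroblasts, red cells and alveolar cells ran from 19.6 to 64.9 CPM. The vector, the treatment and any other difference between the 2 sides cannot be told apart where a comparison crosses them.

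Short stretches of the members' promoters are shown first, because the elements through which ATF4 and ATF6 are known to act can be read in them. Windows from 250 bases before to 50 bases after the start were taken from RefSeq (GRCh38.p14), which held 42 of the 46 members, without *NUPR1*, *PSPH*, *SHMT2* and *ALDH1L2*. The C/EBP-ATF response element, which ATF4 binds together with C/EBP proteins, was searched as TGATGNAA on both strands. Counting 1 window per gene, the first where RefSeq lists several starts, it lay in 6 of 23 genes of the ATF4 arm (26.1%), 1 of 19 of the ER arm (5.26%) and 3.67% of 27305 promoters. Capitals mark it in the stretches that follow, written 5′ to 3′ on the strand of the gene. They lie at chr1:212565196-212565243, plus strand for *ATF3*, chr15:40953242-40953289, plus strand for *CHAC1*, chr7:97872449-97872496, minus strand for *ASNS*, chr19:48755450-48755497, plus strand for *FGF21* and chr16:56931946-56931993, plus strand for *HERPUD1*, a gene of the ER arm.
ATF3: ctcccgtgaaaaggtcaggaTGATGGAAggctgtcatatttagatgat
CHAC1: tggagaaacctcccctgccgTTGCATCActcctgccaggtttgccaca
ASNS: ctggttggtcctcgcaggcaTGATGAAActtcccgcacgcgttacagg
FGF21: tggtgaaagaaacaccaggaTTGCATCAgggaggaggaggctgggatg
HERPUD1: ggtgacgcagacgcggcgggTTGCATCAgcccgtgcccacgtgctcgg
The element read as TGATG in *ATF3* and *ASNS*, and in the opposite orientation in *CHAC1*, *FGF21* and *HERPUD1*. *SLC3A2* and *SLC7A1* held the same letters downstream of their start. *CEBPG* held them only in a later window, which the counts leave out.

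The ER stress response element, bound by ATF6 with NF-Y, consists of CCAAT, 9 bases of any kind and CCACG. It lay in 6 of 19 windows of the ER arm (31.6%), in 0 of 23 of the ATF4 arm and in 22 of the 27305 promoters (0.0806%). The stretches cover chr9:125241371-125241429, minus strand for *HSPA5*, chr22:28800583-28800641, minus strand for *XBP1*, chr19:12938364-12938422, plus strand for *CALR*, chr5:179698758-179698816, plus strand for *CANX*, chr22:49918534-49918592, plus strand for *CRELD2* and chr12:103930196-103930359, plus strand for *HSP90B1*, with capitals from the first to the last base of each element.
HSPA5: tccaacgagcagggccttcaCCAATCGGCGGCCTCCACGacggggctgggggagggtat
XBP1: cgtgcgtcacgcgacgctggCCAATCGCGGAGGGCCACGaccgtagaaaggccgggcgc
CALR: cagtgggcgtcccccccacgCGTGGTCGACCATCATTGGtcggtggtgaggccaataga
CANX: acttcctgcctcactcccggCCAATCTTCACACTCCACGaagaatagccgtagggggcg
CRELD2: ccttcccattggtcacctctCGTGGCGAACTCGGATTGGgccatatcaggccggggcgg
HSP90B1: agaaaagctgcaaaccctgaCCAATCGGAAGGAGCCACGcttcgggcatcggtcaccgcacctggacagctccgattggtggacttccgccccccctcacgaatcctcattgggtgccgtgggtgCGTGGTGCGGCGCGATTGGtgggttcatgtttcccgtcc
In *HSPA5*, *XBP1* and *CANX* the element ran from CCAAT to CCACG, in *CALR* and *CRELD2* it lay in the opposite orientation, and *HSP90B1* held 1 in each orientation. *PDIA6* held the element only in a later window, which the counts leave out. The core of the unfolded protein response element, TGACGTG on either strand, was in none of the members' first windows and in 2% of all promoters. These matches describe letters in the window and no binding was measured. The arms were listed as known genes of these responses, so that their shares above those of all promoters are no independent result.

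Across the 4 groups, the 2 arms followed different orders. Each member was set relative to its own mean log2 CPM over the 12 libraries (with 0.5 added), and the median over an arm was taken in each library. For the ATF4 arm (26 genes) this median was lowest in OV-L1-FGGY with DMSO, from -0.93 to -0.78, close to 0 in OV-CTRL (-0.08 to 0.08) and the NVR-labelled libraries (-0.17 to -0.01), and highest with ML355, from 0.88 to 1.05. For the ER arm (19 genes) the median ran from -0.58 to -0.41 in OV-CTRL and from -0.62 to -0.43 in the NVR-labelled libraries, from 0.24 to 0.30 in OV-L1-FGGY with DMSO, and from 0.74 to 0.76 with ML355. OV-L1-FGGY with DMSO thus had the lowest ATF4 arm of the 4 groups and the second highest ER arm, while ML355 had the highest level of both. OV-CTRL and the NVR-labelled libraries overlapped in both arms.

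**Figure D1:**
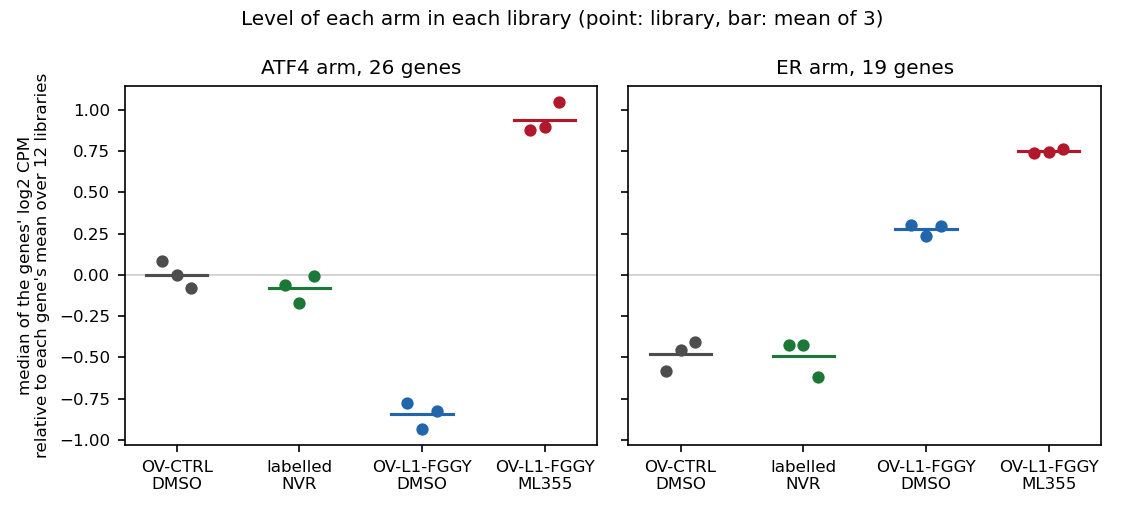
Median level of the 26 tested genes of the ATF4 arm (left) and the 19 genes of the ER arm (right) in each of the 12 libraries, as log2 CPM relative to each gene's mean; points are libraries and bars the mean of 3. In the ATF4 arm OV-L1-FGGY with DMSO is lowest (-0.93 to -0.78), whereas in the ER arm it lies above OV-CTRL, and ML355 is highest in both.

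The first comparison set ML355 against DMSO in OV-L1-FGGY cells and addressed the effect of this compound at 10 μM. The activity of 12-lipoxygenase was not measured in these libraries. With ML355, 21 of 26 tested genes of the ATF4 arm rose and 1 (*PSPH*) fell, and 10 of 19 of the ER arm rose and 1 (*CRELD2*) fell. Among all 17849 genes tested, 21.3% were called higher and 23.5% lower (edgeR, quasi-likelihood test; a call needs a p under 0.01 after Benjamini-Hochberg adjustment). The median log2 fold change was 1.58 for the ATF4 arm and 0.51 for the ER arm, against 0 for all genes tested. In the same libraries all 13 mitochondrially encoded mRNAs fell, with a median log2 fold change of -3.23, and they took 0.637 to 0.828% of the counts against 5.39 to 6.10% with DMSO. The summed epithelial markers were at 436 to 561 CPM with ML355 and 861 to 886 CPM with DMSO, and the 8 markers of other cell types at 38.1 to 45.8 and 54.0 to 64.9. The part of these shifts in the members' result was not tested.

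Among the transcription factors of the ATF4 arm, 6 of 7 rose with ML355. *ATF4* itself (chr22:39519695-39522683) measured 329, 388 and 385 CPM with DMSO and 1354, 1198 and 1410 with ML355. Each of the 3 treated libraries lay above the 3 controls, a 3.60-fold rise (log2 fold change ± standard error 1.85 ± 0.14, adjusted p = 1.78e-08). *DDIT3* (chr12:57516588-57521737), whose protein CHOP promotes cell death under lasting stress, went from 6.02, 7.42 and 8.26 CPM to 433, 311 and 308. This 48.4-fold rise (log2 5.60 ± 0.21, adjusted p = 1.55e-11) was the largest of the transcription factors, and the groups did not overlap. For *ATF3* (chr1:212565334-212620777), a stress-induced repressor of the same family, the libraries read 26.3, 22.6 and 25.0 CPM with DMSO and 282, 294 and 296 with ML355, so that the treated replicates were close to each other and all far above DMSO (11.8-fold, log2 3.56 ± 0.11, adjusted p = 7.09e-12). *CEBPG*, the partner with which ATF4 forms a dimer on its targets, rose by a log2 of 1.99, the stress-induced cofactor *NUPR1* by 2.83 and *CEBPB* by 0.61. *ATF5*, another factor translated under eIF2α phosphorylation, did not pass the test: its mean of 17.7 ± 1.81 CPM with ML355 (SD, n = 3, libraries from 15.6 to 19.02) overlapped the 16.8, 13.2 and 13.9 with DMSO (log2 0.27 ± 0.14, adjusted p = 0.118).

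All 5 feedback and stress regulators rose. *PPP1R15A* (chr19:48872212-48876059), the subunit that directs dephosphorylation of eIF2α, had 44.1, 46.8 and 59.4 CPM with DMSO and 939, 555 and 1099 with ML355. The treated replicates spread over a wide range but even the lowest lay far above DMSO, and the rise was 17.3-fold (log2 4.11 ± 0.23, adjusted p = 8.05e-10). *SESN2*, a leucine sensor that restrains mTORC1, rose by a log2 of 3.30, *DDIT4*, another inhibitor of mTORC1, by 2.79, *CHAC1*, which degrades glutathione, by 2.69, and the pseudokinase *TRIB3*, which restrains ATF4, by 1.32. *DDIT4* was uneven, with 278, 177 and 514 CPM in the 3 ML355 libraries, all of which were above the 49.7, 45.9 and 44.8 with DMSO.

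Among the metabolic targets, asparagine synthetase stood out. *ASNS* (chr7:97851677-97872542) was almost silent in OV-L1-FGGY with DMSO, where 5, 16 and 7 counts gave 0.287, 0.841 and 0.353 CPM, and reached 568, 500 and 704 counts or 28.0, 25.8 and 37.0 CPM with ML355. Its log2 fold change of 5.91 ± 0.30 (60.2-fold, adjusted p = 3.69e-10) was the largest of all members, and rests on few counts in the DMSO libraries: without OV-L1-FGGY DMSO replicate 2 it was 6.52, and the lowest value with 1 library left out was 5.65. Of the serine synthesis enzymes, *PHGDH* rose by a log2 of 1.27 and *PSAT1* by 0.44, whereas *PSPH*, the last step of the same pathway, fell from 55.0, 54.3 and 50.5 CPM to 34.3, 37.7 and 30.2 (log2 -0.65 ± 0.10, adjusted p = 7.03e-05). *CTH*, which makes cysteine from cystathionine, rose by 0.71. The 3 mitochondrial one-carbon enzymes all rose, *MTHFD2* by 2.34, *ALDH1L2* by 1.03 and *SHMT2* by 0.51 on the log2 scale. Of the 3 amino acid transporters, only *SLC3A2*, the heavy chain of the heterodimeric transporters, rose (419.5, 397 and 368 CPM with DMSO, 1629, 1373 and 1869 with ML355, log2 2.04 ± 0.14, adjusted p = 9.78e-09). Its light chain partner *SLC7A5*, a carrier of leucine and other large amino acids, did not pass the test, with 744, 708 and 849 CPM against 667, 875 and 910.2 (log2 0.09 ± 0.14, adjusted p = 0.595), nor did *SLC7A1*, the carrier of arginine and lysine (158, 141 and 164 CPM against 133, 154 and 148, log2 -0.09 ± 0.14, adjusted p = 0.625).

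*GDF15* (chr19:18374731-18389176), a secreted stress cytokine, rose from 118, 91.6 and 109 CPM to 1288, 1219 and 1451 (12.4-fold, log2 3.64 ± 0.18, adjusted p = 2.96e-10). Per kilobase of exon it became the second most abundant member with ML355, at 632 CPM, after *HSPA5*. *STC2*, a secreted glycoprotein, rose by a log2 of 0.45, and the lipoprotein receptor *VLDLR* gave 0.15 without passing the test. The hormone gene *FGF21* was left out of the test by the filter on low counts. It had 1, 0 and 0 counts in the 3 DMSO libraries and 9, 7 and 14 with ML355, against 4, 5 and 5 in OV-CTRL, so that no fold change is given.

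In the ER arm, the largest rise was that of *HSPA5* (chr9:125234853-125241382), which encodes BiP, the chaperone that holds the ER sensors inactive. It measured 2699.7, 2520.1 and 2340.3 CPM with DMSO and 19088, 13732 and 17488 with ML355. All treated libraries were above all DMSO libraries, by 6.65-fold (log2 2.73 ± 0.15, adjusted p = 8.77e-10), and per kilobase of exon *HSPA5* was the most abundant member in both groups (386 and 2568 CPM). *HERPUD1* (chr16:56932142-56944864), a scaffold of ER-associated degradation, followed with 222, 201 and 217 CPM and 1011, 924 and 1148 (4.82-fold, log2 2.27 ± 0.12, adjusted p = 4.31e-10). *DNAJB9*, a co-chaperone of BiP and a target of XBP1, went from 41.7, 32.3 and 35.8 CPM to 107, 99.9 and 109 (log2 1.52 ± 0.15, adjusted p = 3.4e-07), and *MANF*, a secreted ER protein, from 30.1, 34.8 and 39.7 to 103, 73.1 and 102 (log2 1.41 ± 0.16, adjusted p = 2e-06). Neither gene had overlapping groups. The other folding genes that rose were *HSP90B1* (log2 1.32), *SDF2L1* (0.90) and *CALR* (0.54), and of the degradation genes the ubiquitin ligase *SYVN1* (0.47).

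Of the 3 sensors and *XBP1*, *ERN1* and *XBP1* rose. *ERN1* measured 26.1, 27.4 and 25.5 CPM with DMSO and 61.6, 72.1 and 72.3 with ML355 (log2 1.38 ± 0.13, adjusted p = 2.25e-07), and *XBP1* 431, 429 and 404 and 748, 676 and 676 (log2 0.73 ± 0.10, adjusted p = 1.81e-05). In both genes the groups were apart. *EIF2AK3* with 29.5, 25.4 and 27.5 CPM against 29.1, 37.6 and 31.8 overlapped (log2 0.26 ± 0.14, adjusted p = 0.125), and *ATF6* with 117, 106 and 117 against 102, 91.5 and 87.0 did not overlap but missed the threshold (log2 -0.28 ± 0.10, adjusted p = 0.0319). Of the chaperones and folding enzymes 1 fell, which was *CRELD2*, a folding factor of secreted proteins, from 39.4, 40.2 and 44.7 CPM to 20.7, 20.4 and 22.1 (1.97-fold lower, log2 -0.98 ± 0.15, adjusted p = 4.9e-05). The disulfide isomerases *PDIA4* and *PDIA6*, the lectin *CANX*, the co-chaperone *DNAJC3*, and the degradation genes *EDEM1* and *SEL1L* did not pass the test, with log2 fold changes from -0.37 (*EDEM1*) to 0.51 (*SEL1L*, which was called without the low-count filter or with only the 2 groups compared). Of the 6 genes with the ER stress response element shown above, *HSPA5*, *HSP90B1*, *XBP1* and *CALR* rose, *CANX* gave 0.13 and *CRELD2* fell. Of those with the C/EBP-ATF response element in their first window, *ASNS*, *ATF3*, *CHAC1*, *SLC3A2* and *HERPUD1* rose, *SLC7A1* did not pass the test and *FGF21* was not tested. *PDIA6*, with the ER stress response element only in a later window, did not pass the test. *CEBPG*, with the C/EBP-ATF response element only in a later window, rose. These calls are to be read against the whole arms, in which 21 of 26 tested genes (ATF4 arm) and 10 of 19 (ER arm) rose. Whether genes with an element rose more often than the other members was not tested.

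**Figure D2:**
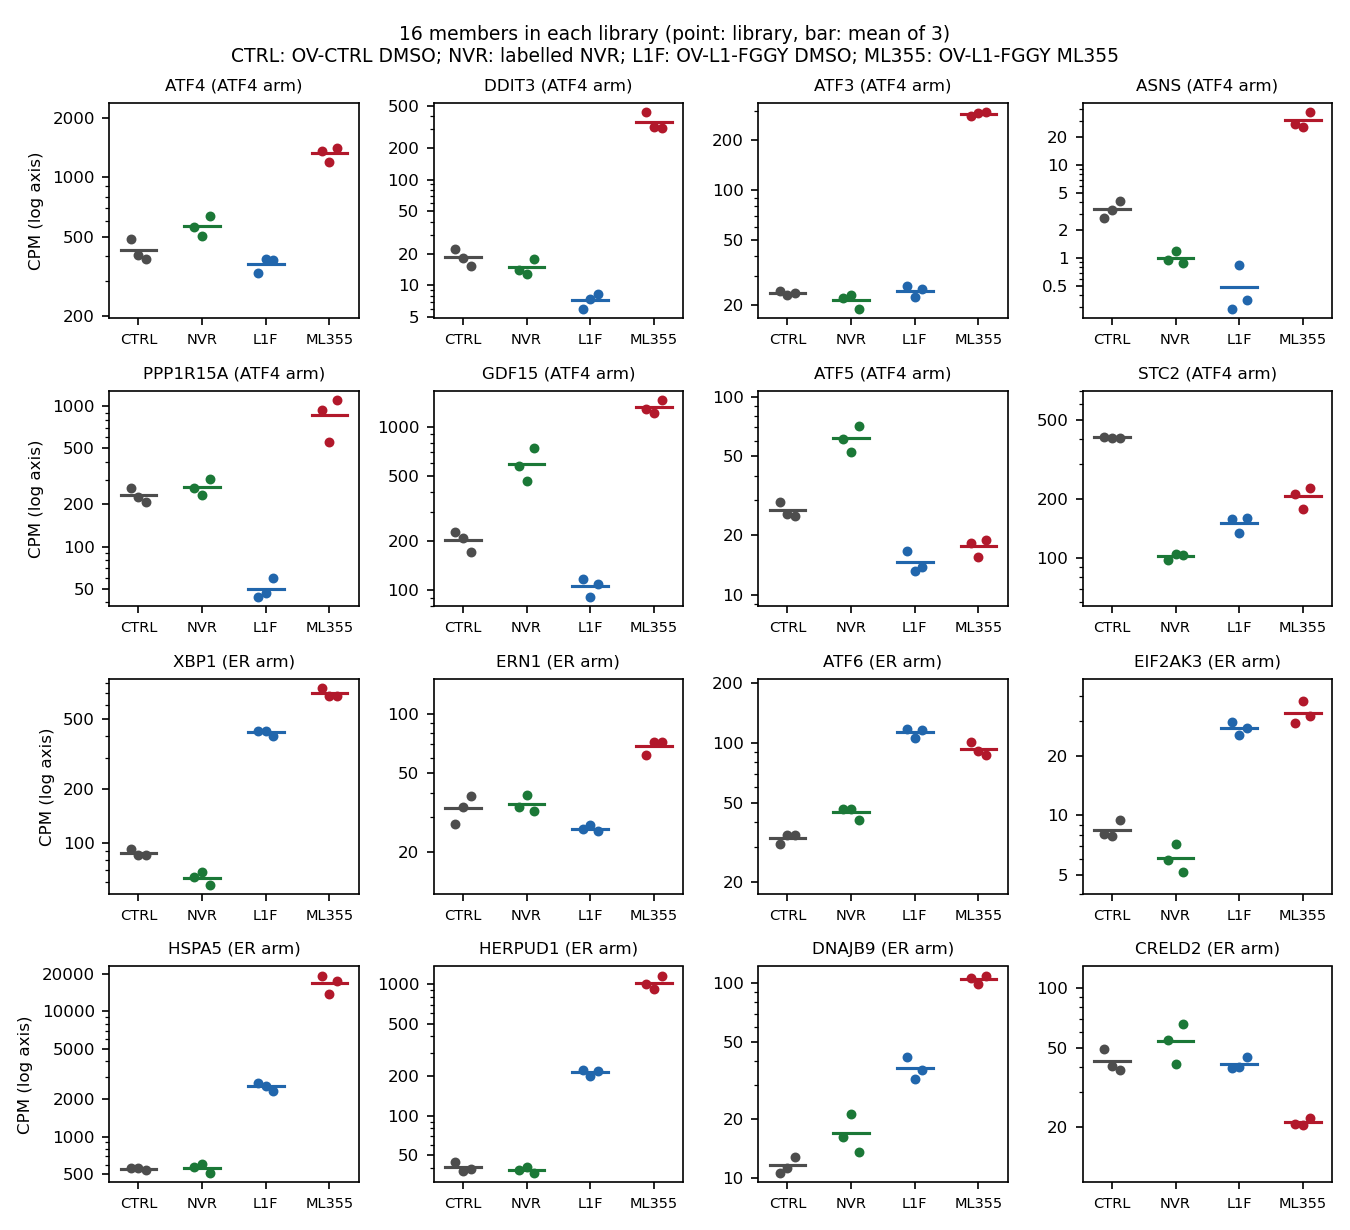
CPM on a log axis of 16 members in each library of OV-CTRL with DMSO (CTRL), the NVR-labelled libraries (NVR), OV-L1-FGGY with DMSO (L1F) and OV-L1-FGGY with ML355 (ML355); points are libraries and bars the mean of 3. The ML355 libraries are the highest for *DDIT3*, *ATF3*, *ASNS*, *PPP1R15A*, *HSPA5* and *HERPUD1*, and the lowest for *CRELD2*, while *XBP1*, *ATF6* and *EIF2AK3* separate the OV-L1-FGGY libraries with DMSO or ML355 from the other 6.

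Of the 33 members called with ML355, 27 were called under every alternative in which they were tested and with each library of the 2 groups left out, and none changed sign. *CEBPB* and *PSAT1* lost the call without OV-L1-FGGY DMSO replicate 1, 2 or 3, and also without ML355 replicate 3 (*CEBPB*, log2 from 0.39 to 0.73 over the libraries left out) or ML355 replicate 2 (*PSAT1*, 0.35 to 0.52). *STC2* lost it without DMSO replicate 2 or ML355 replicate 1 or 3 (0.37 to 0.54), *SYVN1* without DMSO replicate 1 or 2 (0.40 to 0.56), *SHMT2* without DMSO replicate 1 (0.44 to 0.61) and *CALR* without DMSO replicate 2 (0.48 to 0.65). Scaling by library size alone put the median of all genes at -0.13 on the log2 scale, and *CEBPB*, *PSAT1*, *STC2* and *SYVN1* were then not called.

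In the second comparison the NVR-labelled libraries were set against OV-CTRL with DMSO, the group on the same side in *FGGY* and over all genes. Here 5 genes of the ATF4 arm rose and 9 fell, and 2 of the ER arm rose and 2 fell, where 14.5% of all genes tested were called higher and 15.3% lower. The median log2 fold change was -0.30 for the ATF4 arm and 0.03 for the ER arm, against 0 for all genes. With library size alone the all-gene median was -0.15, and higher calls made up 36.3% of all calls in place of 48.8%. The NVR-labelled libraries had 4.73 to 5.34% of their counts in mitochondrial mRNAs and OV-CTRL 3.64 to 3.88%, and the summed epithelial markers were at 1906 to 3170 CPM against 3826 to 5292. The part of these shifts in the members' result was not tested.

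*GDF15* again rose, from 228, 208 and 172 CPM in OV-CTRL to 572, 469 and 739 (2.93-fold, log2 1.55 ± 0.17, adjusted p = 2.77e-06). *ATF5*, which did not pass with ML355, rose from 29.6, 25.7 and 25.1 CPM to 61.1, 52.4 and 71.4 (log2 1.20 ± 0.14, adjusted p = 5.79e-06). The groups were apart for both genes. *CEBPB* rose by 1.08, *CTH* by 1.06 and *PHGDH* by 0.92 on the log2 scale. *ATF4* measured 490.4, 405 and 388 CPM in OV-CTRL and 565, 505 and 639 in the NVR-labelled libraries, groups that did not overlap but missed the threshold (log2 0.41 ± 0.13, adjusted p = 0.0189); DESeq2 called it (0.45, adjusted p = 0.00172), and so did edgeR without OV-CTRL replicate 1 (0.52) or NVR replicate 2 (0.49). For *DDIT3* (22.2, 18.1 and 15.2 CPM against 14.1, 12.9 and 17.6), *ATF3* (24.5, 23.1 and 23.7 against 22.2, 23.2 and 19.2) and *PPP1R15A* (260.2, 226 and 208 against 259, 235 and 304) the groups overlapped, and the adjusted p was 0.15, 0.294 and 0.433.

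The largest falls were those of *STC2*, *ASNS* and *SLC7A1*. *STC2* (chr5:173314723-173328447) measured 409, 406 and 403 CPM in OV-CTRL and 97.9, 105 and 104 in the NVR-labelled libraries, 3.97-fold lower with little spread in either group (log2 -1.99 ± 0.11, adjusted p = 6.78e-09). *ASNS* went from 2.73, 3.32 and 4.14 CPM to 0.951, 1.19 and 0.878 (log2 -1.74 ± 0.28, adjusted p = 0.000135), on 19, 32 and 16 counts in the NVR-labelled libraries, and *SLC7A1* from 115, 143 and 161 to 57.4, 72.7 and 49.8 (log2 -1.22 ± 0.15, adjusted p = 9.17e-06). All 3 had groups that did not overlap. *TRIB3* (-0.98), *MTHFD2* (-0.74), *SESN2* (-0.72), *VLDLR* (-0.58), *CEBPG* (-0.54) and *PSPH* (-0.42) fell as well, with the log2 fold change given for each. *NUPR1*, *DDIT4*, *CHAC1*, *PSAT1*, *SHMT2*, *ALDH1L2*, *SLC7A5* and *SLC3A2* did not pass the test, with log2 fold changes from -0.51 (*CHAC1*) to 0.28 (*NUPR1*), although *SLC7A5* was called with DESeq2, library size alone or no low-count filter, *CHAC1* without that filter and *SHMT2* with library size alone.

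Of the ER arm, 15 of 19 genes did not pass the test. Its 2 higher and 2 lower calls were near the shares of all genes tested, which were 14.5% and 15.3%. *HSPA5* measured 568, 559 and 542 CPM in OV-CTRL and 578, 609 and 518 in the NVR-labelled libraries (log2 0.03 ± 0.14, adjusted p = 0.891), and *HERPUD1* 44.1, 38.1 and 39.3 and 38.3, 40.5 and 36.8 (log2 -0.07 ± 0.11, adjusted p = 0.64), with overlapping groups in both. *DNAJB9* rose from 10.6, 11.3 and 12.8 CPM to 16.1, 21.2 and 13.6 (log2 0.56 ± 0.15, adjusted p = 0.0078) and *ATF6* from 31.2, 34.6 and 34.3 to 46.8, 46.8 and 40.9 (log2 0.43 ± 0.11, adjusted p = 0.00421). *XBP1* fell from 91.7, 85.1 and 84.5 CPM to 64.0, 68.3 and 57.8 (log2 -0.46 ± 0.10, adjusted p = 0.00228) and *CANX*, a lectin that retains unfolded glycoproteins, from 533, 624 and 670 to 414, 482 and 353 (log2 -0.55 ± 0.14, adjusted p = 0.00414). *ERN1* gave 0.08 (adjusted p = 0.638), *MANF* 0.23 (adjusted p = 0.251) and *EIF2AK3* -0.46 (adjusted p = 0.0237; called without NVR replicate 2, at -0.59). The remaining 10 members of the arm lay between -0.35 (*PDIA6*) and 0.34 (*CRELD2*) and did not pass the test, although *PDIA6* and *CRELD2* passed it without NVR replicate 2 and *CALR* with library size alone.

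None of the 4 ER calls held in every fit. *DNAJB9* and *ATF6* lost theirs without OV-CTRL replicate 1, 2 or 3 or NVR replicate 1 or 2 (log2 from 0.36 to 0.71 and from 0.38 to 0.50), *CANX* without OV-CTRL replicate 2 or 3 or NVR replicate 1 or 3 (-0.66 to -0.43), and *XBP1* without OV-CTRL replicate 1 or NVR replicate 1 or 3 (-0.52 to -0.39). With the replicate number as a block, the call of *DNAJB9* was lost (log2 0.56, adjusted p = 0.0166). In the ATF4 arm, *PSPH* lost its call without any 1 of the 6 libraries (-0.44 to -0.40), *VLDLR* without OV-CTRL replicate 2 or 3 or NVR replicate 1 or 3 (-0.68 to -0.47) and *SESN2* without OV-CTRL replicate 1 or 2 or NVR replicate 1 (-0.80 to -0.67), and the other 11 of the 14 called genes kept theirs.

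**Figure D3:**
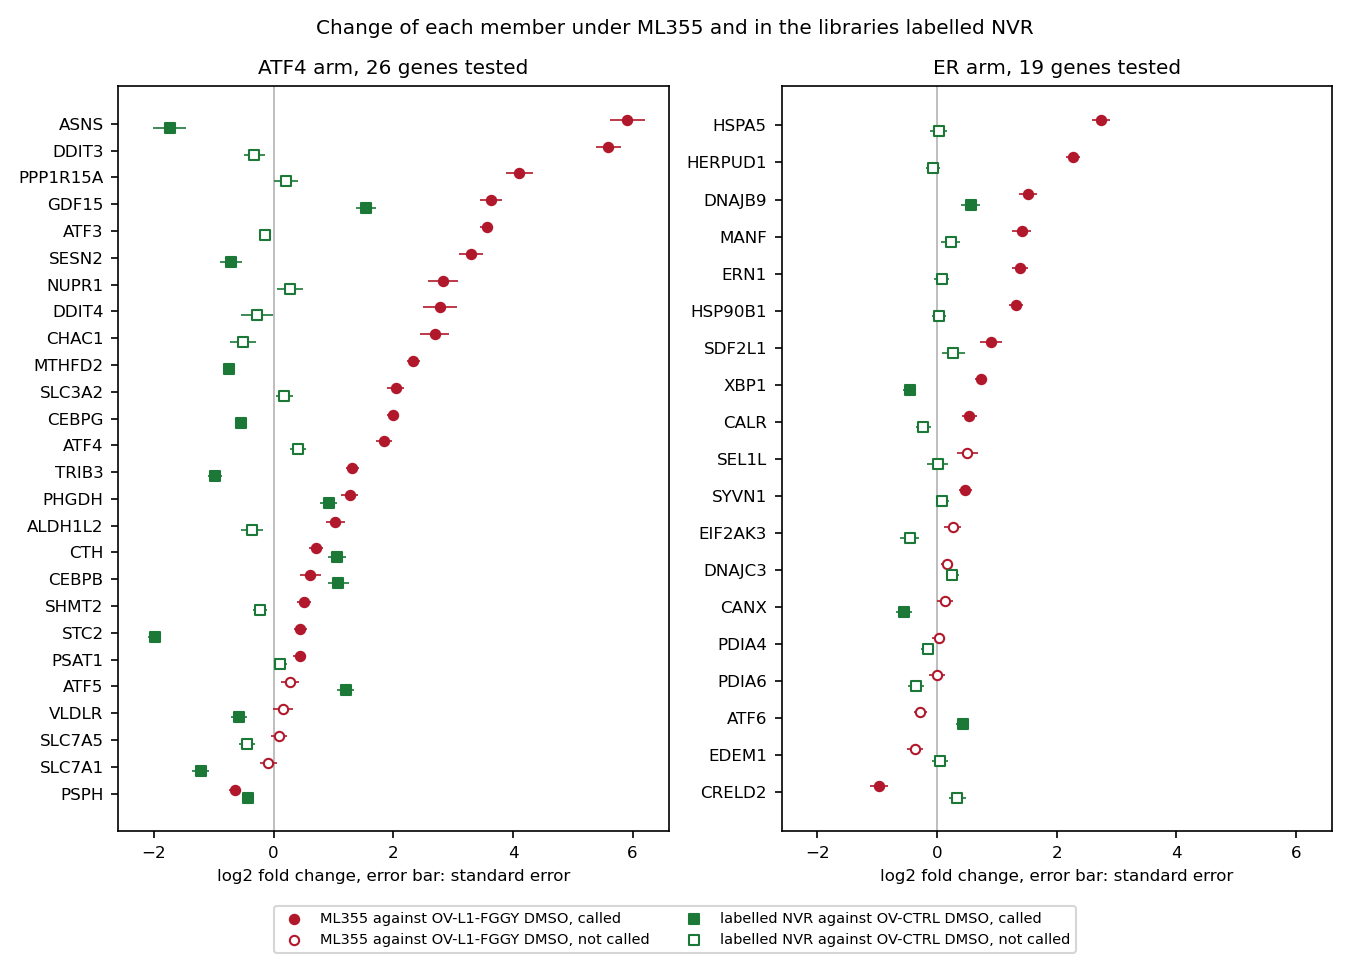
Log2 fold change with its standard error for the 26 tested genes of the ATF4 arm (left) and the 19 of the ER arm (right), for ML355 against OV-L1-FGGY with DMSO (circles) and the NVR-labelled libraries set against OV-CTRL with DMSO (squares); filled symbols passed the test. ML355 values reach 5.91 for *ASNS* and 2.73 for *HSPA5*, where the squares lie at -1.74 and 0.03.

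The difference between these 2 effects was tested in the same fit as an interaction. It was higher for ML355 in 19 and lower in 1 (*ATF5*) of 26 genes of the ATF4 arm, and higher in 10 and lower in 2 (*CRELD2* and *ATF6*) of 19 of the ER arm, where 17.3% of all genes tested were called higher and 16.8% lower. By the labels, the 2 agents differ in target and in concentration, and the 2 pairs of groups also lie on different sides. Which cells received NVR cannot be told from these data, so the values describe how far apart the 2 differences were. *ASNS* differed most, by 7.65 ± 0.41 on the log2 scale (adjusted p = 2.11e-09; 8.26 without OV-L1-FGGY DMSO replicate 2), followed by *DDIT3* (5.92 ± 0.26, adjusted p = 4.31e-10) and *SESN2* (4.01 ± 0.27, adjusted p = 1.49e-08). In the ER arm *HSPA5* differed by 2.71 ± 0.21 (adjusted p = 5.51e-08) and *HERPUD1* by 2.34 ± 0.16 (adjusted p = 1.97e-08). For *GDF15*, which rose in both comparisons, the ML355 effect was larger by 2.09 ± 0.23 (adjusted p = 2.76e-06), while for *CEBPB*, *PHGDH* and *CTH*, which also rose in both, the difference did not pass the test (-0.47 ± 0.24, 0.35 ± 0.20 and -0.35 ± 0.19). The calls of *VLDLR*, *EIF2AK3* and *CANX* were lost when single libraries were left out (without any 1 of 10, 10 and 9 of the 12 libraries).

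The third comparison set OV-L1-FGGY against OV-CTRL, both with DMSO and without an inhibitor. It crosses the 2 sides, so that the vector and any other difference between them cannot be told apart. In OV-L1-FGGY, 2 of 26 genes of the ATF4 arm were higher and 16 lower, and 12 of 19 of the ER arm were higher and 1 (*MANF*) lower, where 32.5% of all genes tested were called higher and 36.2% lower. The median log2 fold change was -0.90 for the ATF4 arm and 0.68 for the ER arm, against -0.11 for all genes. The summed level of the epithelial markers *EPCAM*, *CDH1*, *KRT8* and *KRT18* was 861 to 886 CPM in OV-L1-FGGY with DMSO and 3826 to 5292 CPM in OV-CTRL. The 7 squamous markers summed to 0.860 to 1.53 CPM against 17.3 to 21.3. Within these sums the markers moved in both directions. Of the 4 epithelial markers, 1 was higher and 3 were lower (log2 from -6.275 to 2.487). Of the 3 squamous markers tested, 1 was higher and 2 were lower (log2 from -11.4 to 6.07). The 8 markers of other cell types summed to 54.0 to 64.9 CPM against 19.6 to 25.3, with 3 of the 3 tested higher. Mitochondrial mRNAs took 5.39 to 6.10% of the counts against 3.64 to 3.88%. The part of these shifts in the members' result was not tested. In bulk libraries, fewer cells of a kind and less RNA per cell cannot be told apart.

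In the ATF4 arm, 4 of the 5 feedback and stress regulators were lower. *DDIT4* measured 49.7, 45.9 and 44.8 CPM in OV-L1-FGGY against 507, 545 and 531 in OV-CTRL, 11.3-fold lower (log2 -3.50 ± 0.29, adjusted p = 1.56e-08), and *PPP1R15A* 44.1, 46.8 and 59.4 against 260.2, 226 and 208 (log2 -2.21 ± 0.21, adjusted p = 6.86e-08). *CHAC1* (-2.80) and *SESN2* (-2.49) were lower as well, whereas *TRIB3* gave -0.04. *ASNS* was 6.79-fold lower (log2 -2.76 ± 0.32, adjusted p = 9.07e-07), again on 5, 16 and 7 counts, and reached -3.38 without OV-L1-FGGY DMSO replicate 2 (highest value with 1 library left out -2.51). The paired transporter chains *SLC7A5* and *SLC3A2* were lower, with log2 fold changes of -2.28 and -1.70. Of the transcription factors, *NUPR1* (-1.66), *DDIT3* (-1.35), *CEBPG* (-1.26), *ATF5* (-0.87) and *CEBPB* (-0.71) were lower, while *ATF4* itself (-0.22, adjusted p = 0.138) and *ATF3* (0.05, adjusted p = 0.659) did not pass the test. The 3 tested secreted or surface genes *VLDLR* (-2.77), *STC2* (-1.43) and *GDF15* (-0.93) were all lower, and so was *MTHFD2* (-0.42; from -0.47 to -0.37 over the libraries left out, and not called without OV-L1-FGGY DMSO replicate 2). *PSAT1*, *PHGDH*, *PSPH*, *SHMT2* and *SLC7A1* gave log2 fold changes from -0.10 (*PSPH*) to 0.15 (*SHMT2*) and did not pass.

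Both exceptions of the ATF4 arm were metabolic enzymes with a large difference. *CTH* measured 61.7, 59.1 and 54.3 CPM in the OV-L1-FGGY cells against 2.15, 2.70 and 1.92 in OV-CTRL, 25.8-fold higher (log2 4.69 ± 0.15, adjusted p = 1.34e-13). *ALDH1L2* measured 44.6, 37.1 and 41.5 CPM against 5.38, 7.74 and 9.78 (log2 2.42 ± 0.17, adjusted p = 2.49e-09). Neither gene had overlapping groups.

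In the ER arm, *XBP1* and 2 of the 3 sensors were higher in OV-L1-FGGY. *XBP1* measured 431, 429 and 404 CPM against 91.7, 85.1 and 84.5 in OV-CTRL, 4.84-fold higher (log2 2.27 ± 0.11, adjusted p = 1.65e-11), and *ATF6* (1.76) and *EIF2AK3* (1.70) were higher too. *ERN1* gave -0.34 (adjusted p = 0.0241) and did not pass, except with DESeq2, with the stricter filter of 10 counts or without OV-CTRL replicate 1. *DNAJC3*, a co-chaperone that also inhibits PERK, was 6.83-fold higher with 203, 172 and 183 CPM against 26.0, 26.0 and 29.8 (log2 2.77 ± 0.11, adjusted p = 2.93e-12), the largest difference in the arm, and *HSPA5* was 4.53-fold higher (log2 2.18 ± 0.15, adjusted p = 1.33e-09). *HERPUD1* (2.40), *DNAJB9* (1.66), *CANX* (1.29), *HSP90B1* (1.02), *EDEM1* (0.68), *CALR* (0.67) and *SYVN1* (0.55) were higher, and *MANF* was lower (-0.84). *SDF2L1*, *PDIA4*, *PDIA6*, *CRELD2* and *SEL1L* did not pass the test, with log2 fold changes from -0.32 (*SDF2L1*) to 0.30 (*PDIA4*), although *PDIA4* was called with DESeq2, limma voom, library size alone or only the 2 groups compared, and *PDIA6* with only the 2 groups compared.

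With DMSO in OV-L1-FGGY as the baseline, which is the pairing the labels give, the NVR-labelled libraries had 15 genes of the ATF4 arm higher and 8 lower, and 3 of the ER arm higher and 14 lower, where 38.2% of all genes tested were called higher and 35.4% lower. This comparison shares its baseline with the first and the third, and it crosses the 2 sides. The epithelial markers summed to 1906 to 3170 CPM against 861 to 886 with DMSO, with 3 of the 4 higher and 1 lower. The squamous markers summed to 8.998 to 17.2 against 0.860 to 1.53, with 2 of the 3 tested higher and 1 lower. The markers of other cell types summed to 19.99 to 22.6 against 54.0 to 64.9, with 3 of the 3 tested lower. The part of all these markers in the members' result was not tested. The median log2 fold change was 0.94 for the ATF4 arm and -0.90 for the ER arm, against 0.08 for all genes (-0.16 with library size alone). *DDIT4* (3.21), *GDF15* (2.48), *PPP1R15A* (2.41) and *CHAC1* (2.29) were among the genes higher, and *CTH* (-3.63), *XBP1* (-2.73), *DNAJC3* (-2.52) and *HERPUD1* (-2.47) among those lower. *HSPA5* had 578, 609 and 518 CPM in the NVR-labelled libraries, below the 2699.7, 2520.1 and 2340.3 with DMSO (log2 -2.15 ± 0.15, adjusted p = 1.2e-09). *ATF3* (-0.20), *PSAT1* (0.19), *ASNS* (1.03), *SEL1L* (-0.25) and *CRELD2* (0.38) did not pass the test, of which *ASNS* was called with DESeq2, without the low-count filter or without OV-L1-FGGY DMSO replicate 2, *CRELD2* with DESeq2, DESeq2 size factors, no low-count filter, at least 10 counts in every library or without NVR replicate 2, and *ATF3* with library size alone.

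Some of these calls depended on single libraries. Of the 8 lower calls in the ATF4 arm, *PSPH*, *SHMT2* and *MTHFD2* (log2 -0.32, -0.37 and -0.32) were near the threshold, and 5 calls were left without OV-L1-FGGY DMSO replicate 1 or 3 or NVR replicate 1 or 2. Of the 3 higher calls in the ER arm, *ERN1* (from 0.33 to 0.47 over the libraries left out) and *SDF2L1* (0.37 to 0.76) were each lost without OV-L1-FGGY DMSO replicate 1, 2 or 3 or NVR replicate 1, *ERN1* also without NVR replicate 2 and *SDF2L1* also without NVR replicate 3, and *MANF* (1.07) was kept. The lower calls of the ER arm stayed at 14 with any 1 library left out, and 5 were left in the ATF4 arm with the replicate number as a block.

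**Figure D4:**
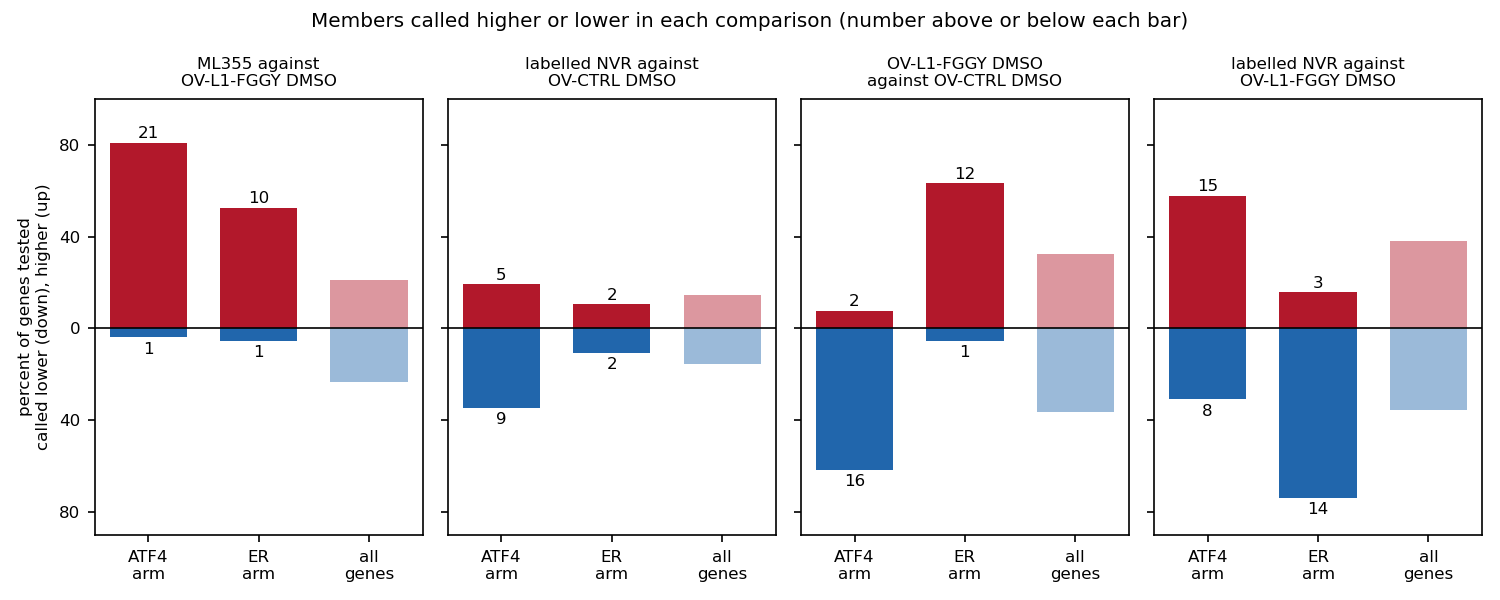
Percent of tested genes called higher (upwards) or lower (downwards) in each of 4 comparisons, for the ATF4 arm, the ER arm and all 17849 genes tested; numbers give the members called. With ML355 both arms have more higher calls (21 and 10) than lower ones (1 and 1), whereas OV-L1-FGGY against OV-CTRL has 16 lower calls in the ATF4 arm and 12 higher calls in the ER arm.

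Genes of the same pathways outside the 46 were counted from 3 further lists, to be read against the shares of all genes tested, which were 21.3% higher and 23.5% lower with ML355, 14.5% and 15.3% for the NVR-labelled libraries relative to OV-CTRL, 32.5% and 36.2% for OV-L1-FGGY against OV-CTRL, and 38.2% and 35.4% for the NVR-labelled libraries relative to OV-L1-FGGY with DMSO. The first holds 14 genes of the integrated stress response machinery (eIF2 kinases, subunits of eIF2 and of its exchange factor eIF2B, another phosphatase subunit and the mitochondrial relay). With ML355, 7 of the 14 rose and 0 fell, among them the phosphatase subunit *PPP1R15B* (log2 1.47 ± 0.16, adjusted p = 1.59e-06), *EIF2B3* (1.17) and *EIF2S2* (1.12). In the NVR-labelled libraries set against OV-CTRL, 0 rose and 1, *EIF2S1*, which encodes eIF2α, fell (-0.75 ± 0.09, adjusted p = 1.08e-05). OV-L1-FGGY against OV-CTRL had 5 of 14 higher, near the share of all genes (32.5%), and 2 lower, with *EIF2S3* higher (1.25) and the exchange factor subunits *EIF2B4* (-1.29) and *EIF2B2* (-0.91) lower. Against OV-L1-FGGY with DMSO, the NVR-labelled libraries had 2 of the 14 higher, which were *EIF2B4* (1.42) and *EIF2B2* (1.03), and 7 lower, among them *EIF2S3* (-1.41).

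Of 20 further genes, listed as other targets of ATF4 or as amino acid genes, 11 rose and 3 fell with ML355. Whether ATF4 acted on any of these genes was not tested. *BBC3*, which encodes the cell death activator PUMA, rose by a log2 of 3.97 ± 0.27 (adjusted p = 6.76e-09), the tRNA exporter *XPOT* by 1.42 and the alanine transaminase *GPT2* by 1.28, while the amino acid transporter genes *SLC38A2*, *SLC7A11* and *SLC6A9* fell. The NVR-labelled libraries set against OV-CTRL had 6 of the 20 higher and 7 lower, with *SESN3* (2.37) and *BBC3* (2.07) higher and *GPT2* (-1.12) lower. In OV-L1-FGGY against OV-CTRL, 6 were higher, among them the glutamine transporter *SLC38A2* (2.95) and *KLHL24* (2.27), and 8 were lower, among them *GPT2* (-2.19), both near the shares of all genes (32.5% and 36.2%). Against OV-L1-FGGY with DMSO the NVR-labelled libraries had 9 higher and 6 lower, with *BBC3* at 5.35, *SLC38A2* at -3.40 and *SLC6A9* at -2.69.

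Of 33 other genes of ER folding, transport and degradation, 5 rose with ML355 and 8 fell, where 21.3% and 23.5% of all genes did, and their median log2 fold change was -0.24. *DERL3*, a channel component of ER-associated degradation (1.88 ± 0.16, adjusted p = 1e-07), and *HSPA13* (1.11) rose, and *WFS1*, an ER membrane protein of calcium balance, fell (-0.93 ± 0.10, adjusted p = 1.55e-06). In the NVR-labelled libraries set against OV-CTRL, 7 were higher, with *OS9* (0.95) and *WFS1* (0.51) among them, and 2 were lower. In OV-L1-FGGY against OV-CTRL, 19 of the 33 were higher and 8 lower, and *DERL3* (3.75), the retrieval receptor *KDELR3* (3.31) and the translocon-associated *SSR1* (2.75) had the smallest adjusted p. The NVR-labelled libraries set against OV-L1-FGGY with DMSO had 10 higher and 18 lower, and the same 3 genes were lower, at -5.06, -3.30 and -2.68.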

How the data were processed

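RNA-seq was performed on 12 libraries, given in the sources as NCI-H520 cells, in 4 groups of 3, grouped by their titles. Whether both sides are the same line was not tested. The authors aligned reads with STAR (version 2.5.3a) to hg38 and counted them per gene with HTSeq (version 0.11.2), per the submitters' processing notes, and deposited raw counts for 58302 Ensembl gene IDs. The annotation release, the strand setting and the handling of multi-mapping reads were not given in the sources used here, so that reads of overlapping or antisense genes cannot be told apart. The labels and the study's methods name different library kits. IDs were matched to symbols with GENCODE release 44 (57532 matched), and gene coordinates are from that annotation on GRCh38.

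The deposited counts were tested with edgeR (version 4.0.16, quasi-likelihood test, TMM scaling, robust fit) in R 4.3.3, in 1 fit of 4 group means over all 12 libraries. After the filterByExpr filter 17849 genes were tested, and p-values were adjusted over all of them by the Benjamini-Hochberg method, with a call at an adjusted p under 0.01. The biological coefficient of variation was 0.143, and total counts of 16242082 to 27004768 per library set the precision. No replicate libraries agreed within sampling noise (chi-square per degree of freedom at least 6.49). The difference between the effects was an interaction contrast of the same fit. The edgeR fit, limma voom and DESeq2 were checked on simulated data for ML355 against DMSO, with a small share of the genes changed. Far larger shares were called in the real data, a setting that the check did not cover. The other alternatives and the interaction were not checked in this way. Alternatives were DESeq2 (version 1.42.0), limma voom (version 3.58.1), other scalings and filters, only the groups compared, the replicate number as a block, and each library left out.

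The members and lists were chosen with earlier results of these data known. Values per library are given for *ATF4*, *DDIT3*, *ATF3*, *XBP1*, *HSPA5*, *ATF6*, *ERN1* and *EIF2AK3*, and for the 5 genes per arm with the largest change among those called with a mean of at least 1 CPM, in ML355 against OV-L1-FGGY with DMSO and in the NVR-labelled libraries set against OV-CTRL. Up to 3 genes per further list and comparison are named by smallest adjusted p, of which 1 is not reported here. *CRELD2*, *PSPH*, *CTH*, *ALDH1L2*, *DNAJC3*, *DDIT4*, *SLC3A2*, *SLC7A5*, *SLC7A11* and the falls of *SLC38A2* and *SLC6A9* with ML355 were added after their values were seen. Motifs were searched with Python 3.11.15 in RefSeq promoter windows.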

Additional observations from a re-analysis of the deposited data

How the results depend on the processing

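No called log2 fold change of a member changed sign under any alternative. Members that were not called, with values from -0.08 to 0.19, did so in some settings, among them *PDIA6*, *PDIA4* and *SLC7A5* with ML355, *HSPA5*, *ERN1*, *HSP90B1*, *EDEM1*, *SEL1L*, *SYVN1* and *PSAT1* in the NVR-labelled libraries relative to OV-CTRL, *ATF3*, *TRIB3*, *PHGDH*, *PSAT1* and *CRELD2* in OV-L1-FGGY against OV-CTRL, and *PSAT1* in the NVR-labelled libraries relative to OV-L1-FGGY with DMSO. Of 156 counts of called members recomputed under another tool, scaling, filter, sample choice or block, 141 stayed within 1.5 times the main count and 15 did not. For the NVR-labelled libraries set against OV-CTRL, the 2 higher calls of the ER arm became 1 with limma voom, 1 without the low-count filter, 1 with the replicate block, 0 with library size alone and 0 with only the 2 groups compared, and they ran from 0 to 2 with 1 library left out. The 2 lower calls became 1 with only the 2 groups compared and ran from 0 to 4. For OV-L1-FGGY against OV-CTRL, the 1 lower call of the ER arm became 2 with DESeq2 and 2 with at least 10 counts in every library, and ran from 1 to 2. For the NVR-labelled libraries set against OV-L1-FGGY with DMSO, the 8 lower calls of the ATF4 arm became 5 with DESeq2, DESeq2 size factors, no low-count filter, at least 10 counts in every library, the replicate block or only the 2 groups compared, and ran from 5 to 6, and the 3 higher calls of the ER arm became 1 with library size alone and ran from 1 to 3. The causes were not tested. Deviations of same-numbered libraries had correlations from -0.35 to 0.17, which cannot show whether same-numbered libraries were prepared together. The replicate block changed the calls over all genes from 3810 higher and 4194 lower to 3596 and 3987 with ML355. The alternatives for the difference between the effects, other than the replicate block, were chosen after seeing the data. Low counts limit *FGF21* and *ASNS*.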
